A study of Mus musculus with 4 samples.

Results

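The matrix proteases and their inhibitors were taken as every gene of the array annotation whose symbol begins with Mmp, Timp or Adamts followed by a digit. The rule found 43 of 19505 measured genes: 21 matrix metalloproteinases (MMPs), 4 tissue inhibitors of metalloproteinases (TIMPs) and 18 members of the ADAMTS family. Each had 1 probe set. Mmp15, Mmp27 and Adamts2 are not analysed here. RNA came from the epididymal fat of male mice and was read on 4 Clariom S Mouse arrays, 1 for each group. The vehicle sham mice received DMSO and sham surgery, and the vehicle overload mice received DMSO and synergist ablation, the removal of muscles that share the work of another, which is then overloaded. The GW4869 sham and GW4869 overload mice had the same surgeries with GW4869, an inhibitor of extracellular vesicle release. The sources used here do not give strain, age, dose, the muscle overloaded or the number of mice behind each array.

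MMPs are zinc endopeptidases that cut collagens, gelatins, elastin and many non-matrix proteins, and most are secreted as inactive precursors. TIMPs bind the active site of MMPs, and Timp3 also blocks several ADAMTS enzymes. The ADAMTS proteases carry thrombospondin repeats and cut proteoglycans such as versican and aggrecan, trim procollagens, or act on other matrix glycoproteins. In fat these enzymes remodel the matrix around adipocytes as the tissue expands or shrinks.

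With 1 array per group no difference here has a replicate error, no test was possible, and every value describes these 4 arrays alone. Values are the log2 expression deposited by the authors, so a difference of 1 is a doubling on that scale, and 1.5-fold is 0.585. They reached 19.93, and the step that set this range is not known here, so folds hold on the deposited scale only. A reading was called within background when it did not exceed the 95th percentile of the antigenomic background probes of its array, 6.34 to 6.40. The negative control rows reached higher, with 95th percentiles of 9.01 to 9.27. Mmp9, Mmp23, Mmp28, Adamts4 and Adamts10, called above background in what follows, did not exceed that higher limit on any array. All 17 measured adipocyte markers were above background on every array, with Adipoq between 19.34 and 19.67. The arrays also carried RNA of the male tract. All 15 sperm and testis markers were above background on vehicle sham, against 1 on vehicle overload, 1 on GW4869 sham and 4 on GW4869 overload. Of 15 measured epididymal markers, 14 were above background on GW4869 overload, against 6 on vehicle sham, 2 on vehicle overload and 3 on GW4869 sham.

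Above background on at least 1 array were 18 of the 43 members, against 10491 of the 19505 measured genes. Of the 18 members, 14 were above it on all 4 arrays. The other 25 lay between 1.78 and 6.22 everywhere. These included all 4 collagenases (Mmp1a, Mmp1b, Mmp8, Mmp13), the stromelysins Mmp3, Mmp10 and Mmp11, and the membrane-type enzymes Mmp16, Mmp17, Mmp24 and Mmp25. Mmp20 and Mmp21 were also within background, as were both measured procollagen N-proteinases, Adamts3 and Adamts14. So were Adamts6, Adamts7, Adamts8, Adamts13, Adamts15, Adamts16, Adamts17, Adamts18, Adamts19 and Adamts20. Mmp3, Mmp11, Adamts7 and Adamts20 had means over the 4 arrays above the floor of 4.67, the 40th percentile of gene means, and therefore enter the counts below. Mmp11 came nearest to background, at 4.60 on vehicle sham, 6.22 on vehicle overload, 4.91 on GW4869 sham and 5.43 on GW4869 overload. Mmp1a and Mmp1b are near-identical copies whose probe sets can cross-hybridise.

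Genomic position set part of the family apart. In the RefSeq gene order 10 Mmp genes lie side by side on chromosome 9, and 9 of them were measured. Only Mmp7 and Mmp12 of these 9 were above background, against 16 of the 34 members elsewhere. The other 7 of the run ranged from 2.0013 to 5.82. RefSeq (GRCm38.p6) start sites were listed for 29 of the 43 members, and the 250 bases before each were searched on both strands for TGANTCA, the site of AP-1, for TATAAA, the TATA box, and for GCCNNNGGC, the site of AP-2 factors. AP-1 is the Fos and Jun transcription factor through which growth factors and cytokines are known to induce several of these genes. TGANTCA was found for 8 of 29 members, against 7.82% of the 27025 genes with a listed start. All 8 were among the 9 genes of the chromosome 9 run, and 0 of the 20 other members with a window had it. TATAAA was found for 7 of those 9 genes, for Adamts1 and Mmp21 among the other 20, and for 14.3% of all genes. GCCNNNGGC was also found for 8 of 29 members, against 15.4% of all genes, of which 2 (Mmp1a and Mmp1b) were in the run and 6 elsewhere. Adamts9 was the only one of those 8 above background. The 8 windows with TGANTCA are shown because they place the detected genes Mmp7 and Mmp12 beside their undetected neighbours. Timp1 is added because it shares the array on which Mmp7 was highest. Each line holds the 100 bases before a listed start, 5′ to 3′, with TGANTCA and TATAAA matches in capitals.
Mmp7: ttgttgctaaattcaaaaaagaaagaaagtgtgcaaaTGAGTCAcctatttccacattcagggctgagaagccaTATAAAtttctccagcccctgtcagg
Mmp12: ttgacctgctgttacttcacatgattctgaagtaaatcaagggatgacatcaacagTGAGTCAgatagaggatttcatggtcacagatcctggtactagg
Mmp3: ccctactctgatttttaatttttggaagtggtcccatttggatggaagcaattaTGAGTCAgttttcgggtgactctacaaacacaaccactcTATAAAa
Mmp10: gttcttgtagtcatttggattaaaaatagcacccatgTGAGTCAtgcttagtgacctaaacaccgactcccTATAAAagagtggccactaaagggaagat
Mmp13: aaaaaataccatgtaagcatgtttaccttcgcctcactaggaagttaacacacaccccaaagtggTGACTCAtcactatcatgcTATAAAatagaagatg
Mmp1a: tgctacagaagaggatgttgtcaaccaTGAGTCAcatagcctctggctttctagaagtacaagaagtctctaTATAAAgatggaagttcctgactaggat
Mmp1b: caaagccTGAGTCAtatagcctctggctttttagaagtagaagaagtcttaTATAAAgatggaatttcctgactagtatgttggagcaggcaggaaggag
Mmp20: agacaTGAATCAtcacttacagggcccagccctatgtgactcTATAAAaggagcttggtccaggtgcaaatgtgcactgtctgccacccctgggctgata
Timp1: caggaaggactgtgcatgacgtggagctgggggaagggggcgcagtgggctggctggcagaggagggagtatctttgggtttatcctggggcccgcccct
These windows are chr9:7691990-7692089 (Mmp7), chr9:7347274-7347373 (Mmp12), chr9:7445722-7445821 (Mmp3), chr9:7502242-7502341 (Mmp10), chr9:7272414-7272513 (Mmp13), chr9:7464041-7464140 (Mmp1a) and chr9:7628131-7628230 (Mmp20), all on the plus strand. Mmp1b is at chr9:7388027-7388126 on the minus strand and Timp1 at chrX:20870066-20870165 on the plus strand. Mmp7 and Mmp12 each have 2 listed starts, and for each only the start shown has the AP-1 letters in its window. The TATAAA matches of Mmp7 also lie before that start alone. Timp1 has none in its window, which says nothing about the factor itself. A match describes letters, not a bound site.

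**Figure D1:**
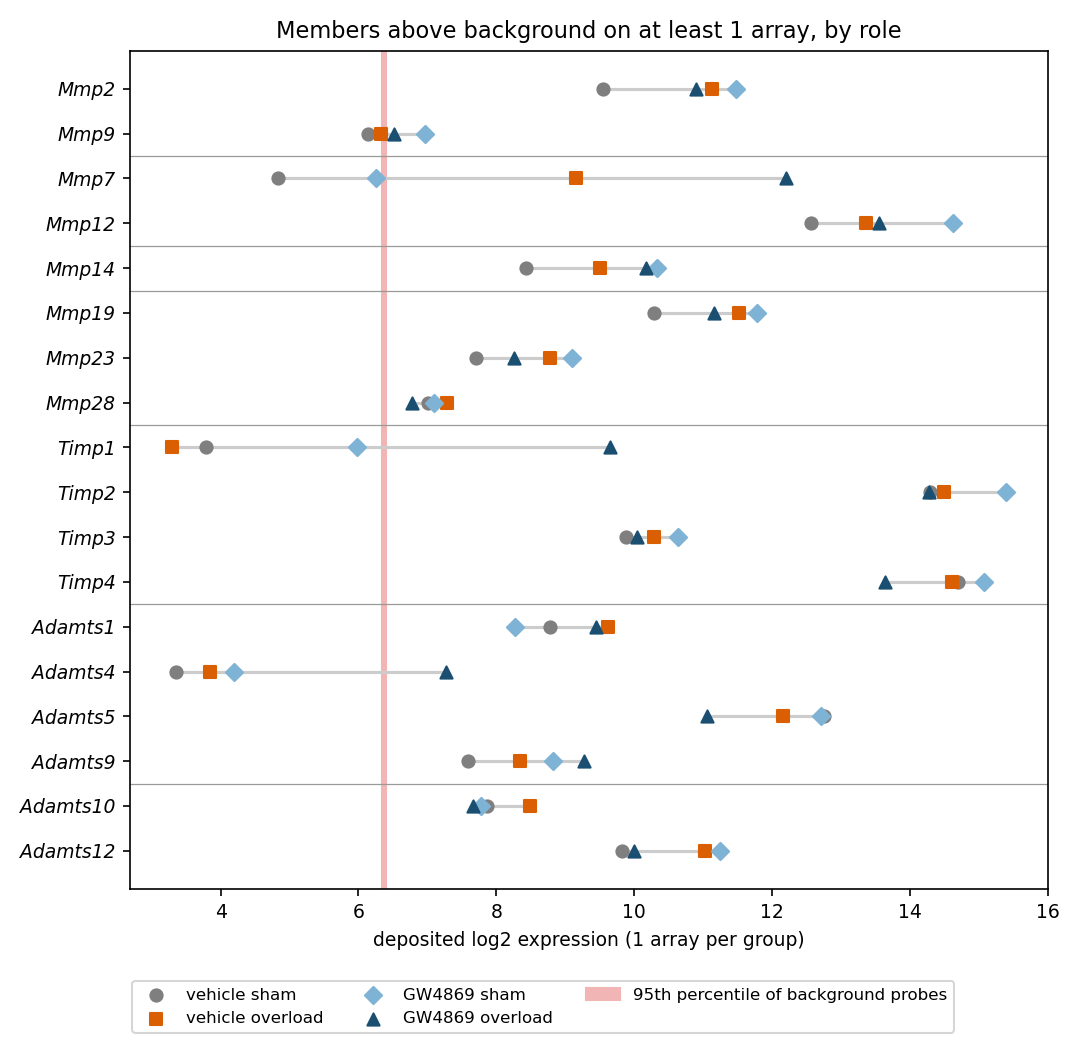
Deposited log2 expression of the 18 members above background on at least 1 array (horizontal axis), grouped by role, with 1 point for each array and a band at the 95th percentile of background probes. Mmp7, Timp1 and Adamts4 span from below the band to values of 12.20, 9.64 and 7.27 on GW4869 overload, while Mmp2, Mmp12, Mmp14, Mmp19, Mmp23 and Adamts12 are lowest on vehicle sham and highest on GW4869 sham.

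Of the gelatinases, which digest denatured collagen and type IV collagen, Mmp2 was lowest on the vehicle sham array. Its log2 values were 9.54 on vehicle sham, 11.13 on vehicle overload, 11.48 on GW4869 sham and 10.90 on GW4869 overload. The overload difference was therefore 1.59 under vehicle and -0.58 under GW4869, just short of 1.5-fold. Mmp9, typical of neutrophils and macrophages, had 6.13, 6.33, 6.96 and 6.52 in the same order. Both vehicle readings of Mmp9 were within background, and the GW4869 readings only just cleared it. Mmp14, the membrane-bound enzyme that activates the Mmp2 precursor together with Timp2, had 8.435, 9.51, 10.33 and 10.17. Like Mmp2 it was lowest on vehicle sham, but its 2 GW4869 readings were close to each other (difference -0.16). In tissue RNA, fewer cells of a type and less RNA per cell cannot be told apart.

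Mmp12, the macrophage elastase, followed the same order as Mmp2 at its extremes, with 12.57 on vehicle sham, 13.36 on vehicle overload, 14.62 on GW4869 sham and 13.55 on GW4869 overload. The difference between the sham arrays, 2.05, was larger than either overload difference, 0.80 under vehicle and -1.07 under GW4869. Mmp19, a secreted MMP of many tissues, had 10.28, 11.52, 11.79 and 11.16. Mmp23, an MMP made as a membrane protein, had 7.71, 8.77, 9.09 and 8.26. For both of these genes GW4869 sham was highest, and overload was higher than sham under vehicle (1.24 and 1.06) and lower under GW4869 (-0.63 and -0.83). Mmp28, or epilysin, varied least of the detected MMPs with readings of 6.77 to 7.28, and none of its differences reached 1.5-fold.

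Mmp7, or matrilysin, is secreted by glandular epithelia. It stood at 4.83 on vehicle sham and 6.25 on GW4869 sham, both within background, against 9.16 on vehicle overload and 12.20 on GW4869 overload. It was higher with overload under either injection, by 4.33 and 5.95. With background readings raised to the background percentile, the differences were 2.77 and 5.86. The vehicle overload reading also lay just inside the 95th percentile of negative control rows on its array, 9.19. The epididymal markers had a mean of 13.14 on GW4869 overload, where Mmp7 was highest, but 4.40 on vehicle overload, where Mmp7 was also above background. On that array 2 of 15 epididymal markers were above background, and their part in the Mmp7 reading was not tested.

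The TIMPs did not move together. Timp1, an inhibitor that cytokines induce in many cells, had 3.79 on vehicle sham, 3.29 on vehicle overload and 5.98 on GW4869 sham, all within background, against 9.64 on GW4869 overload. Its difference there was 3.66 from GW4869 sham and 6.35 from vehicle overload, or 3.30 from either array with background readings raised to the background percentile. It was the only TIMP higher on GW4869 overload than on the other arrays.

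Timp2, which forms the complex that activates Mmp2, had 14.29 on vehicle sham, 14.50 on vehicle overload, 15.40 on GW4869 sham and 14.28 on GW4869 overload. Timp3, which binds to the matrix, had 9.88, 10.28, 10.64 and 10.05. Timp4, a TIMP known to be abundant in fat, had 14.70, 14.60, 15.08 and 13.65. These 3 genes were highest on GW4869 sham. Overload was lower than sham under GW4869 for Timp2 (-1.12), Timp3 (-0.59) and Timp4 (-1.43), and within 1.5-fold under vehicle (0.20, 0.40 and -0.09). With arrays centred on the adipocyte list, the GW4869 differences were -0.44, 0.0855 and -0.75. In the RefSeq gene order Timp1, Timp3 and Timp4 lie inside the synapsin genes Syn1, Syn3 and Syn2, while Timp2 lies in no other protein-coding gene.

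Among the ADAMTS enzymes that cut proteoglycans, Adamts4 and Adamts5, the main aggrecanases, differed in opposite directions on GW4869 overload. Adamts4 had 3.35 (vehicle sham), 3.85 (vehicle overload) and 4.20 (GW4869 sham), all within background, and 7.27 on GW4869 overload. The overload difference under GW4869 was 3.07, or 0.93 with the sham reading raised to the background percentile. Adamts5 had 12.76, 12.16 and 12.71 on these arrays and 11.05 on GW4869 overload, with an overload difference of -1.66 under GW4869 and -0.60 under vehicle. The Adamts4 reading of 7.27 lay under the negative control percentile of the GW4869 overload array, 9.27.

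Adamts1, which cuts versican, had 8.78 on vehicle sham, 9.62 on vehicle overload, 8.26 on GW4869 sham and 9.45 on GW4869 overload. Both overload readings were above both sham readings, with differences of 0.84 and 1.19. Under vehicle the difference was 0.56 with arrays centred on the adipocyte list, short of 1.5-fold. Adamts9, another versican-cutting enzyme, had 7.59, 8.34, 8.83 and 9.28. Both GW4869 readings were above both vehicle readings, by 1.23 in sham and 0.94 in overload.

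Of the other ADAMTS genes, Adamts12, which can cut cartilage oligomeric matrix protein, had 9.83 on vehicle sham, 11.03 on vehicle overload, 11.24 on GW4869 sham and 10.0001 on GW4869 overload. Its overload differences were nearly equal in size and opposite in sign, 1.20 under vehicle and -1.24 under GW4869. Adamts10, which binds fibrillin, had 7.87, 8.49, 7.78 and 7.66. It was highest on vehicle overload and differed little among the other arrays.

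**Figure D2:**
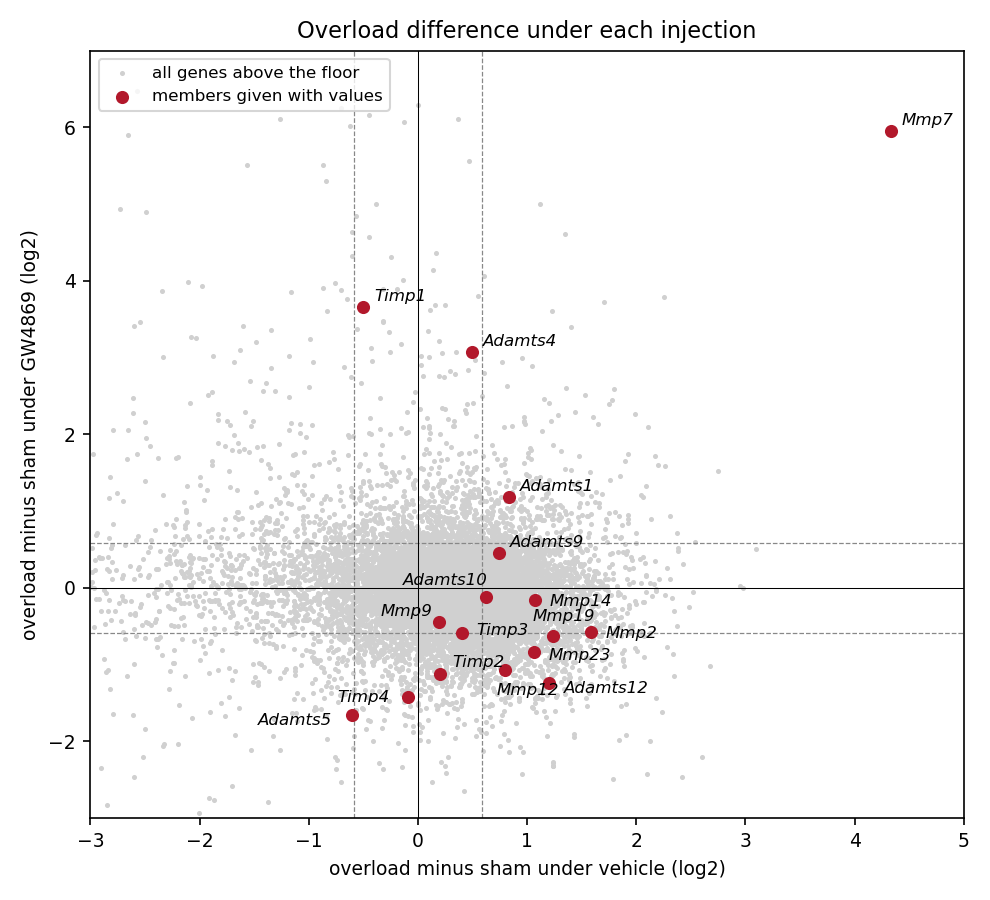
Overload minus sham under vehicle (horizontal axis) against the same under GW4869 (vertical axis), in log2 units, for the 17 members given with values (red) and all genes above the floor (grey; points outside the axes are not drawn). Dashed lines mark 1.5-fold. Mmp7 lies far up on both axes, and Timp1 and Adamts4 only on the vertical one. Mmp12, Mmp19, Mmp23 and Adamts12 have opposite signs and pass 1.5-fold on both axes. Other members with opposite signs, such as Mmp2 and Timp2, fall short of 1.5-fold on at least 1 axis.

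Counts over the 21 members above the floor leave out Adamts4, whose mean of 4.67 is just under it. Timp1 passed the floor through its high reading on GW4869 overload, so it had to differ. Overload under vehicle was at least 1.5-fold higher for 13 of 21 members and lower for 1, Adamts5, against 30.2% of all 11703 genes above the floor higher and 16.9% lower (47.1% in either direction). Of the 13, Mmp3, Mmp11 and Adamts20 were within background on every array. Among the 18 members above background on at least 1 array, 10 were higher and 1 lower. The median difference was 0.80 for the 21 members and 0.26 for all genes. The split was 8 higher and 2 lower with arrays centred on the adipocyte list. It was 9 and 2 with differences centred on the median difference of all genes.

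Overload under GW4869 showed the reverse balance. It was higher for 3 of 21 members (Mmp7, Timp1 and Adamts1) and lower for 8, against 13.4% and 15.3% of all genes (28.6% in either direction). The 8 were Mmp12, Mmp19, Mmp23, Timp2, Timp3, Timp4, Adamts5 and Adamts12, and the median difference was -0.32 for the members and -0.04 for all genes. Centring on the adipocyte list, whose mean was lowest on GW4869 overload, changed the split to 7 higher and 2 lower. That scaling raised the median difference of all genes by 0.68, so the lower calls hold on the deposited scale and not relative to adipocyte genes, except for Adamts5 (-0.98) and Timp4 (-0.75).

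GW4869 against vehicle in sham mice gave 13 of 21 members higher and 0 lower, against 28.9% and 14.4% of all genes (43.4% in either direction). The median difference was 0.96 for the members and 0.27 for all genes. The differences of Mmp2 (1.94), Mmp12 (2.05) and Mmp14 (1.89) were among them. So were those of Timp1, Mmp7 and Mmp3, where both readings were within background. Both this comparison and overload under vehicle subtract the vehicle sham array, so its low readings enter both. The split was 13 higher and 2 lower with arrays centred on the adipocyte list, and 11 and 2 with differences centred on the median difference of all genes.

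GW4869 against vehicle in overloaded mice gave 4 of 21 members higher and 6 lower, against 18.4% and 18.8% of all genes (37.2% in either direction). This comparison does not use the vehicle sham array, but it uses GW4869 overload, where 14 of 15 epididymal markers were above background. Mmp7 (3.04), Timp1 (6.35), Mmp14 (0.66) and Adamts9 (0.94) were the higher ones. The lower ones above background were Timp4 (-0.96), Adamts5 (-1.11), Adamts10 (-0.84) and Adamts12 (-1.03). The median difference was -0.23 for the members and -0.04 for all genes. The split was 12 higher and 0 lower with arrays centred on the adipocyte list, a scaling that added 0.87 to the median difference of all genes, and 3 and 8 with arrays centred on all genes.

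**Figure D3:**
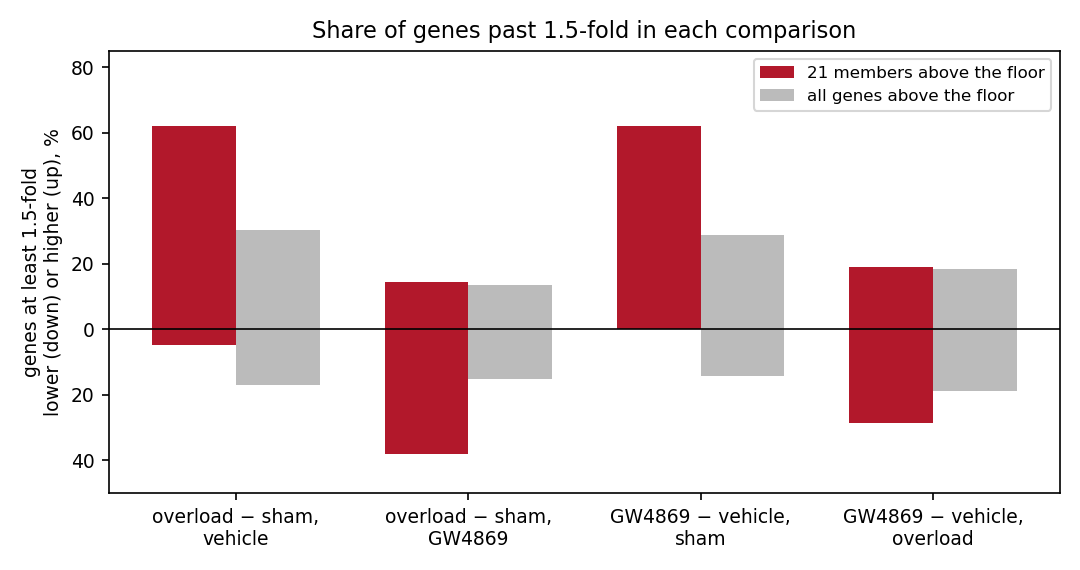
Percent of genes at least 1.5-fold higher (bars up) or lower (bars down) in each of the 4 comparisons, for the 21 members above the floor (red) and all 11703 genes above it (grey). The members' bars are longest upward for overload under vehicle and for GW4869 in sham mice, 61.9% each against 30.2% and 28.9% of all genes. These shares include members whose readings were within background on both arrays compared.

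Opposite overload differences of at least 1.5-fold, higher under vehicle and lower under GW4869, were seen for 4 of 21 members, Mmp12, Mmp19, Mmp23 and Adamts12, against 5.53% of all genes above the floor. The reverse was seen for 0 members, against 4.2% of all genes. Mmp7 and Adamts1 were higher with overload under both injections, against 3.08% of all genes. These counts rest on differences between arrays that share the injection, and the vehicle pair includes the array with testis RNA. The GW4869 pair includes GW4869 overload, where 14 of 15 epididymal markers were above background. The part of either RNA in these counts was not tested.

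The order of the arrays was similar for many members. Of the 18 members above background, 11 were lowest on vehicle sham, against 44.5% of the 10491 genes above background on at least 1 array. Among these 11, Mmp7, Mmp9 and Adamts4 were within background there and on at least 1 other array, so their lowest array is uncertain. GW4869 sham was highest for 10 of the 18, against 22% of genes, and vehicle sham was highest for 1, Adamts5, against 22.9%. GW4869 overload was highest for 4 (Mmp7, Timp1, Adamts4 and Adamts9) and lowest for 5, or 22.2% and 27.8% of the members, near the 26.1% and 23.1% of genes. Timp1 and Adamts4 were above background on that array alone, so they had to be highest on it. Mmp7 was above background on the overload arrays alone, so its highest array could hardly be a sham one. Likewise Mmp9, highest on GW4869 sham, was above background on the GW4869 arrays alone, so its highest array could hardly be a vehicle one.

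The marker lists of other cells moved with some of these readings. The macrophage markers had a mean of 9.52 on vehicle sham, 10.26 on vehicle overload, 11.48 on GW4869 sham and 11.65 on GW4869 overload, with 12, 13, 13 and 13 of 13 measured above background. Mmp12 shared their low end and had a difference of -1.07 between GW4869 overload and GW4869 sham. In that comparison the macrophage markers had a median of -0.13, with 4 of 13 at least 1.5-fold higher (Fcgr1 1.72, Adgre1 1.51, Gpnmb 1.45 and Itgam 0.84) and 2 lower (Trem2 -1.09 and Csf1r -0.70). Their part in the Mmp12 reading was not tested. The fibroblast and progenitor markers had means of 8.9963, 9.26, 9.72 and 8.8971, with 10 of 12 above background on every array. Their mean was highest on GW4869 sham, as were 10 of the 18 members above background, among them Mmp2, Mmp23, Adamts12 and Timp2. It was lowest on GW4869 overload, whereas Mmp2, Mmp23 and Adamts12 were lowest on vehicle sham. The part of fibroblasts in those readings was not tested. The endothelial markers had means of 9.35, 9.98, 9.78 and 9.14, all 10 above background throughout. Sperm and testis markers had a mean of 14.65 on vehicle sham, the array on which 11 members were lowest, and at most 4.71 elsewhere. The part of that RNA in the low member readings was not tested.

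Neutrophil markers were above background only on GW4869 overload, for 4 of 9 measured: S100a8 (8.63), S100a9 (7.94), Retnlg (8.18) and Csf3r (8.72). The rest of the list was within background on every array. Its overload differences under GW4869 were 0.51 for Cxcr2, -1.07 for Mpo, -0.64 for Elane, -0.18 for Camp and -0.21 for Ngp. The neutrophil proteases of the family did not share the high readings of S100a8, S100a9, Retnlg and Csf3r. Mmp8 was at 2.71 and Mmp25 at 3.43 on that array, both within background, and Mmp9 differed by -0.44 from GW4869 sham. The mesothelial list had means of 9.29, 8.83, 9.98 and 10.0031, but 6 of its 11 measured genes were at least 1.5-fold lower with overload under GW4869 and 3 higher, with a median of -0.78. Its keratins Krt8 and Krt18, which other epithelia share, were among the 3 higher and reached 12.08 and 11.62 on GW4869 overload, while Upk3b had a difference of -1.59 and Gpm6a -1.43. Smooth muscle markers had means of 11.95 on vehicle sham, 8.25 on vehicle overload, 12.09 on GW4869 sham and 9.74 on GW4869 overload. Their split between sham and overload was the reverse of Mmp7 and Adamts1. Mast cell markers had means between 5.66 and 6.38 on the 4 arrays. With overload under GW4869, 4 of their 7 genes above the floor were at least 1.5-fold lower and 2 higher, with a median of -1.51. Leydig cell markers were above background only on vehicle sham, for 2 of 5. The 5 distal tract genes, picked on these arrays by an earlier analysis, had means of 12.27 and 12.30 on the sham arrays against 3.33 and 4.97 in overload.

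**Figure D4:**
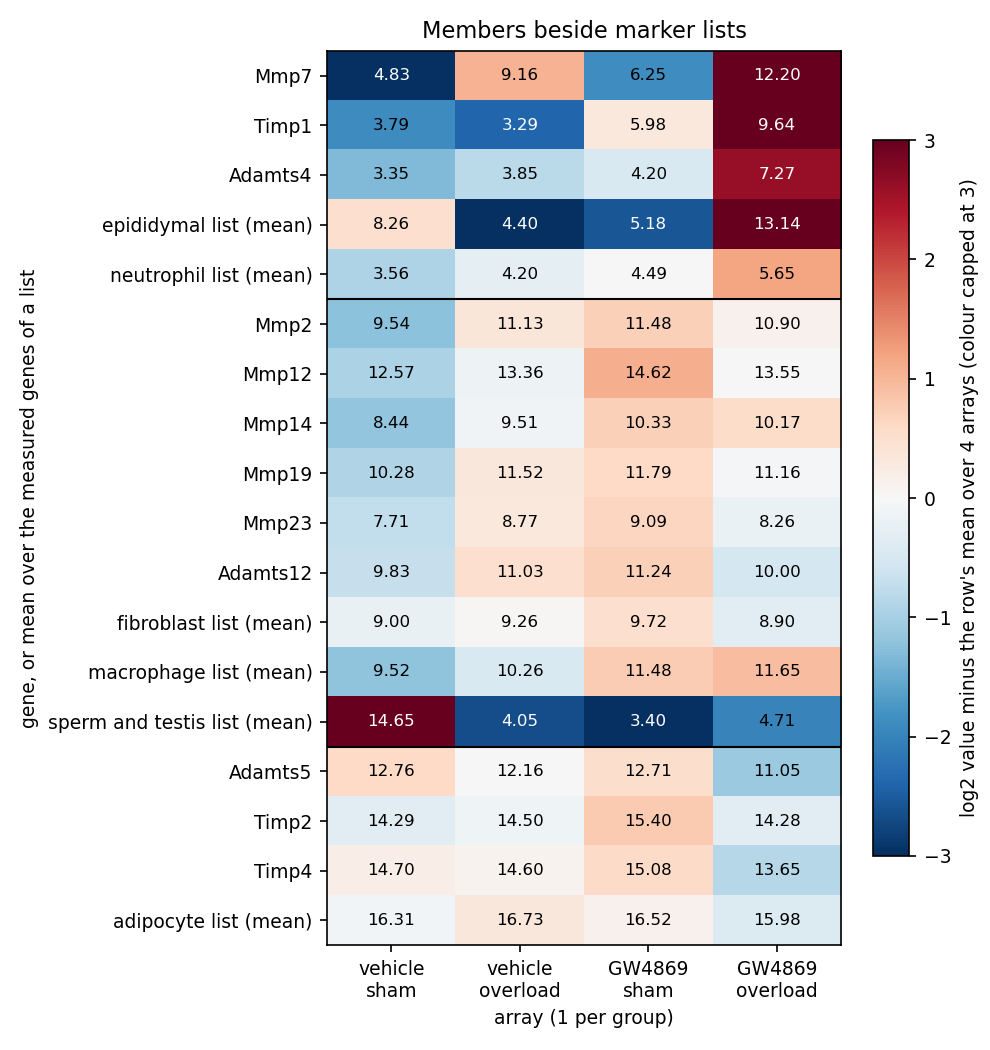
Deposited log2 values of 12 members and the means of 6 marker lists (rows) on the 4 arrays (columns), printed in each cell, with colour for the deviation from the row's mean. Mmp7, Timp1 and Adamts4 are highest on GW4869 overload, as are the epididymal and neutrophil lists. The block from Mmp2 to Adamts12 is lowest on vehicle sham, where the sperm and testis list is at 14.65.

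Genes that act with the proteases were counted in the same way. Of all genes above the floor, 30.2% were higher and 16.9% lower with overload under vehicle. Under GW4869 the shares were 13.4% and 15.3%. The lists are small, and several of their counts were near these shares. The plasmin system activates several MMPs. Of its 7 measured genes above the floor, 3 were higher and 0 lower with overload under vehicle, and 1 was higher and 1 lower under GW4869. Serpinb2, an inhibitor of urokinase, was at 8.86 on GW4869 overload and at 4.502 or less on the other arrays, the pattern of Timp1. Plau, urokinase itself, had an overload difference of -1.15 under GW4869, and Serpinf2, the plasmin inhibitor, was within background on every array. The urokinase receptor gene Plaur was at 7.48 and 6.90 on the GW4869 arrays against 3.76 and 4.81 under vehicle.

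Of 8 MMP activators and non-TIMP inhibitors above the floor, 2 were higher and 0 lower with overload under vehicle, and 1 was higher and 2 lower under GW4869. St14, an epithelial membrane protease that lay under the floor, was at 7.12 on GW4869 overload and within background on the other arrays. The overload difference of the proprotein convertase Pcsk5 was 1.89 under vehicle, and those of Pcsk6 and the proteoglycan Spock2 were -1.605 and -1.73 under GW4869. The ADAMTS-like genes, which lack the protease domain, had 2 of 4 higher under vehicle and 1 of 4 lower under GW4869. Adamtsl1 had -0.74 under GW4869, and Adamtsl3 and Adamtsl5 had 0.71 and 0.77 under vehicle. Of the 5 astacin protease and procollagen enhancer genes, 2 were higher under vehicle and 3 lower under GW4869. Bmp1, the procollagen C-proteinase, had 1.28 and -0.90, Tll1 1.97 and 0.26, and the enhancer Pcolce -0.21 and -0.85. Mep1a was within background throughout.

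The matrix substrates of these enzymes gave 8 of 17 higher and 1 lower with overload under vehicle, and 0 higher and 8 lower under GW4869, with medians of 0.54 and -0.49. Lum, a collagen-binding proteoglycan, had 1.68 and -0.80, and Col1a2, a chain of type I collagen, 0.40 and -1.25. Vwf, the substrate of Adamts13, had 1.57 and -1.37, while Adamts13 itself was within background on every array. Comp, a substrate of Adamts12, was within background throughout as well. Of 10 AP-1 subunits and inducing cytokines above the floor, 5 were higher and 1 lower under vehicle, and 3 were higher and 2 lower under GW4869. Il1b, a cytokine known to induce Timp1 and Adamts4, was at 9.88 on GW4869 overload and within background on the other arrays. The cytokine gene Il6, under the floor in its mean, had the same pattern with 7.88 there. The AP-1 subunit Junb was at 9.08 there against 6.796 on GW4869 sham. Fos was within background throughout. The part of Il1b, Il6 and Junb in the Timp1 and Adamts4 readings was not tested, and GW4869 overload also carried epididymal transcripts.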

How the data were processed

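Epididymal fat RNA was measured on 4 Clariom S Mouse arrays, 1 per group, with groups taken from the sample titles. Per the submitters' processing notes the authors used Partek and RMA, and they deposited a log2 value for each probe set. The sources used here do not give versions, settings or the genome build. Transcript clusters make up 22142 of the 28846 rows, and 19572 probe sets have 1 symbol in the platform annotation. The probe set with the highest mean was kept for each of 19505 genes. RefSeq altered 0 of the member symbols. Differences were taken between pairs of arrays in 4 comparisons and counted past 1.5-fold over the 11703 genes with a mean above the 40th percentile of gene means. No test was run, because 1 array per group leaves no replicate error. Precision is limited by the number of arrays.

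Background was read from 23 antigenomic probe rows and 5222 negative control rows. A member was given with its 4 values where at least 1 reading exceeded background and at least 1 of its 4 differences reached 1.5-fold, which 17 members met. Other members are given by their range. Of 6 pathway lists, the 3 measured genes with the largest overload difference in either injection were named, whether or not above the floor, and markers of 12 cell types or tissues were listed beside the members. Any other list gene named was chosen after its values were seen. The members and lists were chosen with earlier results of these data known. Alternatives were 3 array scalings, 2 floors, low values raised to the floor, the mean of probe sets and a 2-fold threshold. A further scaling and a background filter were added after seeing the data. Counting was tested on simulated data. Promoter windows came from RefSeq (GRCm38.p6). Python 3.11.15, pandas 2.3.3, NumPy 2.4.6 and matplotlib 3.10.9 were used.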

Additional observations from a re-analysis of the deposited data

Results flagged for a closer look

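Overload differences of opposite sign, each at least 1.5-fold, appeared in 4 members, higher under vehicle and lower under GW4869. The difference under GW4869 minus that under vehicle was -2.44 log2 units for Adamts12, -1.87 for Mmp12, -1.87 for Mmp19 and -1.89 for Mmp23. With 1 array per group this difference between the injections was not tested. The vehicle part of each rests on the vehicle sham array, which also carried sperm and testis transcripts. The GW4869 part rests on the GW4869 overload array, which carried epididymal transcripts. Mmp23 did not exceed the negative control percentile on any array. With arrays centred on the adipocyte list the GW4869 differences were -0.56 for Adamts12, -0.39 for Mmp12, 0.0485 for Mmp19 and -0.16 for Mmp23, all within 1.5-fold, while the vehicle differences were 0.92, 0.52, 0.96 and 0.78.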

How the results depend on the processing

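No paired analysis was possible because each group holds 1 array. Of 40 recounts of members at least 1.5-fold apart in either direction, 37 were within 1.5 times the main count. That measure joins both directions, so it cannot show a change of direction. Centring on the adipocyte list turned the balance from mostly lower to mostly higher for overload under GW4869 and for GW4869 in overloaded mice. At a 2-fold threshold the count was 7 for overload under vehicle (main 14) and 4 for GW4869 in overloaded mice (main 10), and with no floor it was 18 for the latter. Of 42 member differences past 1.5-fold on the deposited scale, 24 kept direction and side of the threshold under all 4 scalings. Centring on the adipocyte list turned 3: Mmp19 (0.0485) and Timp3 (0.0855) for overload under GW4869, and Adamts10 (0.0323) for GW4869 in overloaded mice. Each member has 1 probe set, so averaging probe sets left member values as they were. Signal near background limits Mmp9, and the lower readings of Mmp7, Timp1 and Adamts4. Mmp9, Mmp23, Mmp28, Adamts4 and Adamts10 also stayed under the negative control percentile on every array.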
